A study of Mus musculus with 20 samples.

Results

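The data compared here are messenger RNA levels in KSL cells, which are cKit+ Sca1+ Lin- cells sorted from mouse bone marrow, and in whole bone marrow that had not been sorted. All placebo libraries of these populations were taken, which gave 8 of the 20 libraries of the series: 6 of KSL cells and 2 of whole marrow. The KSL libraries were 3 of wild-type and 3 of Fancd2-/- mice, each made from the pooled cells of 5 mice, and the whole marrow libraries were 1 of each genotype, each combined from 5 mice. Every mouse was a male of strain background 129S4, aged 4 months, which ate the placebo chow for 3 months from weaning. The Fancd2-/- mice carry a deletion of a gene of the Fanconi anemia pathway, which repairs DNA crosslinks. The labels do not say whether the pools came from different mice, so p-values measure the spread between these pooled libraries. With 1 whole marrow library per genotype, the spread within whole marrow was measured only after an additive term for genotype.

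Blood formation rests on a small pool of stem cells and multipotent progenitors, which in the mouse carry the receptor Kit and the surface protein Sca-1 and lack the antigens of mature lineages. Most cells of whole marrow are their descendants: maturing granulocytes, nucleated red cell precursors and B lymphocytes. The KSL gate is meant to discard these descendants and to keep the immature cells, many of which depend on stem cell factor or FLT3 ligand.

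The KSL libraries held 10777293 to 121347117 counted reads, and the whole marrow libraries 100192496 (wild-type) and 106889481 (Fancd2-/-). In whole marrow, 583 and 574 genes carried the first 50% of all reads, against 1265 to 1476 genes in KSL cells. S100a9, a calcium-binding protein of neutrophils, alone took 3.82% and 4.07% of whole marrow reads. No single gene took more than 0.63% in a KSL library. Because so few genes fill the whole marrow libraries, levels are given as CPM, a gene's reads scaled to a common library size, after trimmed-mean (TMM) scaling, which sets most genes near no change. The median gene then differed by -0.04 on the log2 scale, and scaling by library totals alone would move that median to 0.76. All directions below are relative to the TMM scale. Of the KSL libraries, Fancd2-/- replicate 3 stood apart in the summed levels of stromal, respiratory chain and glycolysis genes. Much of its stromal sum was 1 gene, Spp1. Fancd2-/- replicate 2 stood apart in globin genes and several neutrophil genes. The values are given beside the results they touch.

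Of 13949 genes tested with edgeR's quasi-likelihood method, 4525 (32.4%) were higher and 5097 (36.5%) lower in KSL cells at an adjusted p under 0.05. At least 4-fold differences were found for 1501 higher genes (10.8%) and 1830 lower genes (13.1%). Large differences were mostly lower levels in KSL cells: 878 genes were at least 16-fold lower against 410 that were at least 16-fold higher. At 256-fold or more the counts were 219 lower and 7 higher. The KSL and whole marrow libraries did not overlap for 4405 of the higher and 4976 of the lower genes, and over all 13949 genes tested KSL libraries lay wholly above for 4793 and wholly below for 5353. Of the genes at least 4-fold lower, 37 had no read in any KSL library, and 34 of those at least 4-fold higher had no read in whole marrow. Genes and members called higher or lower in what follows passed this test at an adjusted p under 0.05. The shares over all genes tested, 32.4% higher and 36.5% lower, are the background for the list counts below. In bulk RNA, fewer cells of a type and less RNA per cell cannot be told apart. Without Fancd2-/- replicates 2 and 3 the counts at 4-fold were 1686 higher and 1991 lower, and scaling by library totals gave 2542 and 1314, with 8159 higher and 2719 lower genes in all, so that 75% of calls were higher against 47% with TMM.

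**Figure D1:**
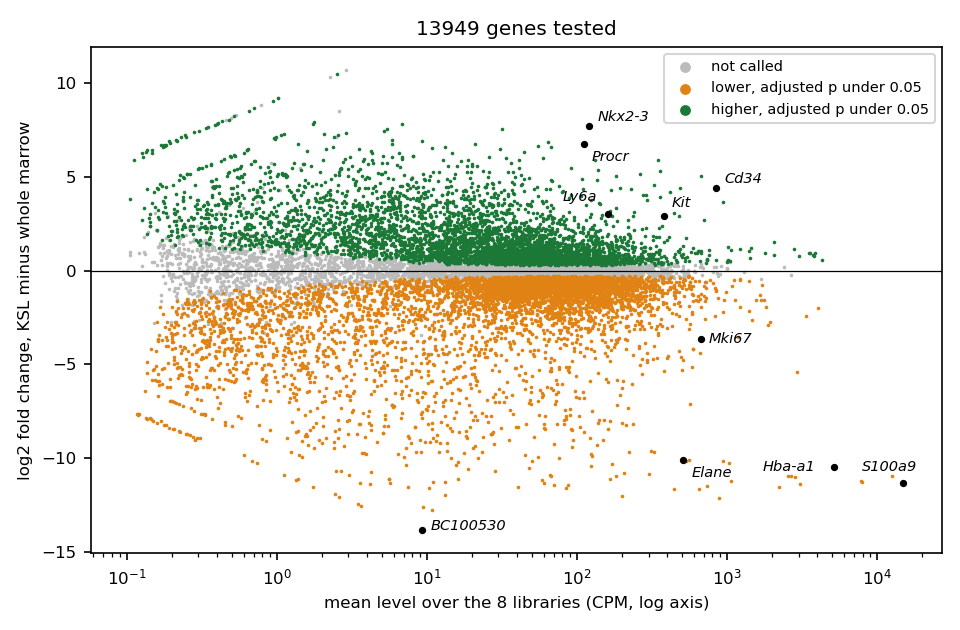
Each point is a gene: its mean level over the 8 libraries in CPM (log axis) against its log2 fold change, KSL minus whole marrow, coloured by the edgeR call at adjusted p under 0.05. The 878 genes at least 16-fold lower reach down to BC100530, which had no read in KSL cells, and points on slanted lines at the edges are genes with almost no reads in one population.

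Both antigens used in the sort were higher in KSL cells, and this is what the gates selected. Kit, the stem cell factor receptor (NM_001122733, chr5:75971012-76052746, mm9), had a level of 269.6 to 679 CPM in KSL libraries with a median of 489 CPM, against 68 and 57 CPM in wild-type and Fancd2-/- whole marrow. Ly6a, which encodes Sca-1 (NM_010738, chr15:74825307-74828318), was at 141 to 273 CPM with a median of 208 CPM against 25.1 and 25.3 CPM. The differences were 7.59-fold for Kit (log2 2.92 ± 0.25 SE, adjusted p = 3.5e-06) and 8.19-fold for Ly6a (log2 3.03 ± 0.23, adjusted p = 1.4e-06). The 13 tested genes of known lineage antigens were all lower (11 with library totals), with a median of -6.49 log2 units against -0.04 over all genes. Which antibodies defined Lin- is not given here, and the list also holds Ptprc (CD45), which kept 115 to 228 CPM in KSL cells. Cd3d, a chain of the T cell receptor complex, was at 0 to 0.252 CPM against 33.5 and 39.2 CPM.

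Sca-1 belongs to the Ly6 family of small surface proteins, most of which were lower in KSL cells. Of 10 family members tested, 2 were higher and 7 lower, with a median of -2.26. Ly6c2, an antigen of monocytes and granulocytes (chr15:74938591-74942379), was at 0.613 to 5.78 CPM in KSL cells and at 1319 and 1288 CPM in whole marrow, 809.8-fold lower (log2 -9.66 ± 0.58, adjusted p = 2.7e-06). Ly6d, an early marker of B-lineage commitment, was 44.8-fold lower. Ly6e, which most blood cells express, was at 747 to 1103 CPM in KSL cells against 1664 and 1569 CPM (1.79-fold lower), a call lost with library totals (log2 -0.05). Ly6h was the other higher member, at most 1.04 CPM in KSL cells with no read in whole marrow, which puts it at least 14.9-fold higher against a floor of 3 counts over both whole marrow libraries. Its call was lost without the Fancd2-/- whole marrow library (adjusted p = 0.058). Reads of Ly6c1 and Ly6c2 may be split between near-identical copies, and the counting rule is not given in the sources used here.

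Transcription factors known from stem cells were mostly enriched by the sort. Of 35 tested, 25 were higher and 5 lower, and their median was 1.76. The most enriched gene of the whole comparison among those at 20 CPM or more was Nkx2-3, a homeobox factor (NM_008699, chr19:43686815-43690382). Its level was 122 to 199 CPM (median 171) in KSL cells against 1.01 and 0.525 CPM in whole marrow, a 212-fold difference (log2 7.73 ± 0.28, adjusted p = 1.1e-08). Every KSL library was far above both whole marrow libraries. Mecom, whose EVI1 protein maintains stem cells (NM_007963, chr3:29850218-29912126), was at 42.8 to 99.8 CPM against 0.799 and 0.696 CPM, 97.8-fold higher. Hlf, a basic leucine zipper factor of stem cells (NM_172563, chr11:90197849-90252231), reached 237 to 618 CPM against 7.89 and 6.91 CPM (60.2-fold, log2 5.91 ± 0.34, adjusted p = 2.3e-07). Mycn, the MYC paralog of immature cells, was 58.4-fold higher. Fancd2-/- replicate 3 was the lowest KSL library for Mecom, Hlf and Mycn, and still above both whole marrow libraries for each.

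Factors known from maturing lineages were among the 5 lower ones. Gfi1b, a repressor needed for red cells and platelets, was at 21.9 to 55 CPM in KSL cells and at 328 and 290.3 CPM in whole marrow, 8.8-fold lower (log2 -3.14 ± 0.17, adjusted p = 1.4e-07). Zfpm1, the GATA1 partner FOG1, was 5.46-fold lower, and Tal1, a master factor of blood and red cells, 2.5-fold lower. Cebpa, the factor that starts granulocyte differentiation, was at 35.5 to 66.1 CPM against 103 and 119.5 CPM, a call lost with library totals (log2 -0.43). The groups did not overlap for any of these 4 genes. Lyl1, a close relative of Tal1, was at 303 to 476 CPM in KSL cells, which included both whole marrow values of 460.0 and 411 CPM, and was not called (log2 -0.11 ± 0.17, adjusted p = 0.58), but was called higher with library totals (log2 0.68, adjusted p = 0.0029).

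Stem cell surface genes were the most enriched of the larger lists. Of 30 tested, 22 were higher and 4 lower, with a median of 2.95. Procr, the protein C receptor that marks stem cells (NM_011171, chr2:155576953-155581214), was at 128 to 177 CPM (median 143) in KSL cells and at 1.55 and 1.22 CPM in whole marrow, a 106-fold difference (log2 6.73 ± 0.21, adjusted p = 5e-09). All 6 KSL libraries were above both whole marrow libraries. Vldlr, a lipoprotein receptor, was 81.3-fold higher at 48.9 to 75.7 CPM. Fgd5, a guanine nucleotide exchange factor used to tag stem cells, was 44-fold higher at 35.9 to 69.1 CPM against 1.4 and 1.05 CPM. Among the 12 genes with the highest KSL level of those at least 4-fold enriched, which were looked up after the values were seen, were Gpr56, Cd34 and Eltd1. Gpr56, an adhesion receptor, had a mean of 1223 CPM against 94.3 CPM in whole marrow. Cd34, the sialomucin of progenitors, had 1110.0 against 51.7 CPM, and Eltd1, another adhesion receptor, 885 against 26.6 CPM.

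The 4 lower members of the list are surface proteins that mature marrow cells also carry. Bst1, a surface enzyme also found on myeloid and B-lineage cells, was at 0.077 to 0.346 CPM in KSL cells and at 47.1 and 56.5 CPM in whole marrow (216-fold lower, adjusted p = 5.8e-09). Cd9, a tetraspanin of platelets, was 3.21-fold lower without overlap. Itga2b, the platelet integrin CD41, was at 34.2 to 49.1 CPM against 64.8 and 61.6 CPM (1.47-fold lower, adjusted p = 0.0057), a direction that turned when libraries were scaled by their totals (log2 0.24). Its call was lost without the Fancd2-/- whole marrow library (adjusted p = 0.071), and that of Abcg2 without the wild-type one (adjusted p = 0.059). Of 5 transporters tested, several of which pump dyes out of stem cells, 3 were higher and 1 was lower. Abcb1b was at 34.7 to 45.6 CPM against 11.7 and 11.5 CPM. Abcg2, which defines the side population and is also made by red cell precursors, was at 59.4 to 89 CPM against 113 and 113 CPM (1.55-fold lower, log2 -0.63 under TMM and 0.17 with library totals).

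**Figure D2:**
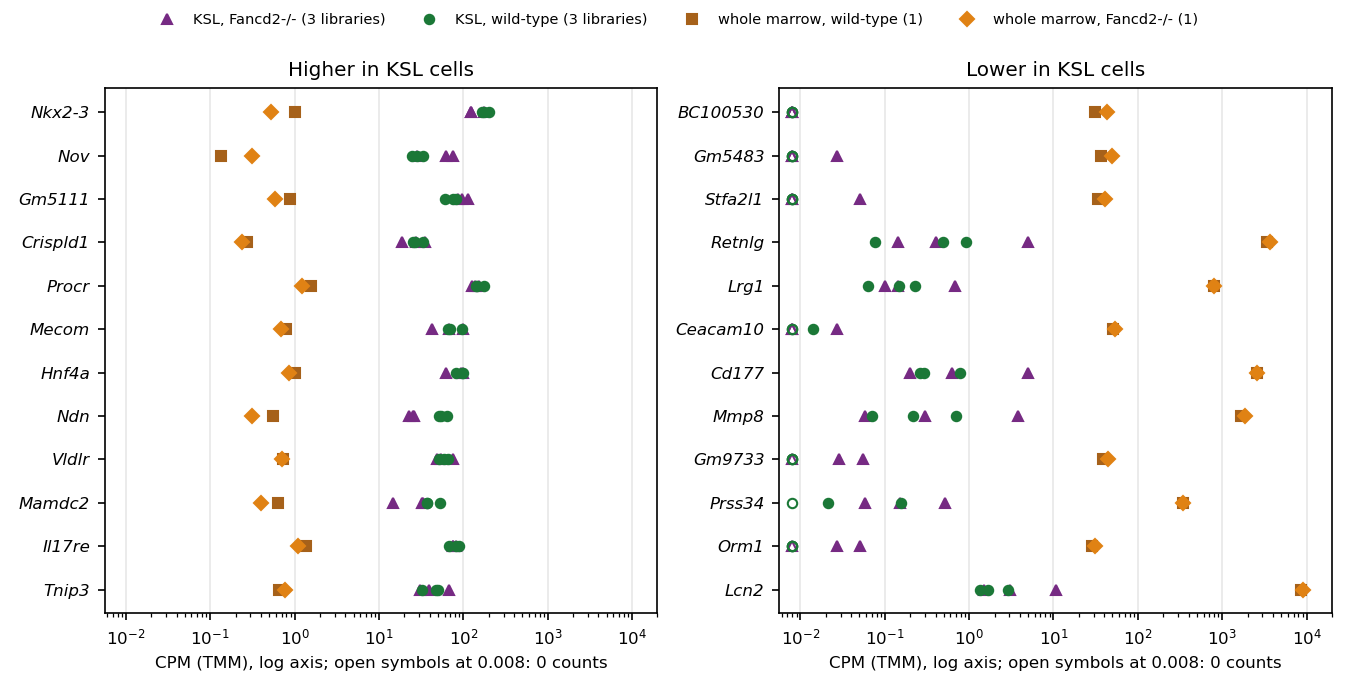
Levels in CPM (TMM, log axis) of the 12 most enriched and the 12 most depleted genes named by the rule in each of the 8 libraries, with wild-type KSL as circles, Fancd2-/- KSL as triangles and whole marrow as squares and diamonds. The KSL points of Nkx2-3 lie between 122 and 199 CPM, far right of whole marrow, and on the depleted side the highest KSL point of Retnlg, 5.06 CPM, belongs to Fancd2-/- replicate 2. Open symbols at the left edge are libraries with 0 counts.

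The 12 most enriched genes named by size also included several that are on none of the stem cell lists. Nov, a secreted matrix protein also called CCN3, was at 24.4 to 76.3 CPM in KSL cells and at 0.136 and 0.312 CPM in whole marrow (187-fold, log2 7.55 ± 0.52, adjusted p = 6.9e-07). Its 2 highest KSL values, 76.3 and 62.6 CPM, came from Fancd2-/- replicates 1 and 2. Hnf4a, a nuclear receptor best known from liver, was at 61.8 to 100.3 CPM against 1.01 and 0.852 CPM, a 95.5-fold difference. Ndn, the imprinted growth suppressor necdin, was at 22.8 to 26.2 CPM in the Fancd2-/- KSL libraries and at 50.9 to 63.6 CPM in the wild-type ones, all far above 0.558 and 0.312 CPM in whole marrow. Il17re, a subunit of an interleukin 17 receptor, was at 67.3 to 89.2 CPM, 63.8-fold higher. Tnip3, an inhibitor of NF-kB signalling, was 62.9-fold higher, Crispld1 108-fold, Mamdc2 66.6-fold and the unannotated gene Gm5111 114-fold.

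Receptors for blood growth factors lay on both sides. Of 30 tested, 8 were higher and 19 lower, with a median of -0.92, and with library totals 13 were higher and 12 lower with a median of -0.12. Flt3, the receptor of multipotent progenitors (NM_010229, chr5:148142317-148212065), was at 323 to 533 CPM (median 502) in KSL cells and at 32.5 and 29.4 CPM in whole marrow, a 15.1-fold difference (log2 3.92 ± 0.21, adjusted p = 1.1e-07). Fzd6, a receptor of WNT proteins, and Tek, the receptor of angiopoietins, were 94.8-fold and 18.1-fold higher at lower levels, 11.1 to 23.9 and 11.6 to 22.6 CPM. The lower members described next are known from single lineages, but the 19 lower ones also held Igf1r, Tnfrsf1a and Ifnar1 (log2 -0.87, -0.98 and -0.40). Epor, the erythropoietin receptor (NM_010149, chr9:21763343-21768020), was at 5.04 to 7.45 CPM in KSL cells and at 261 and 235 CPM in whole marrow (40.8-fold lower, log2 -5.35 ± 0.16, adjusted p = 3.6e-09). Csf1r, the receptor of monocytes and macrophages, was 41.5-fold lower, and Il7r, the interleukin 7 receptor of lymphoid precursors, 19.7-fold lower.

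Late neutrophil genes, which encode the granule and surface proteins of maturing neutrophils, were the most depleted list. All 40 tested were lower, each at least 4-fold, with a median of -10.1 log2 units. Together with 1 more gene below the count filter they took 12.7% and 13.6% of reads in the whole marrow libraries and 0.102% to 0.129% in the KSL libraries. S100a9, the most abundant gene of whole marrow, which was looked up for its level, had a mean of 59760.0 CPM there and 14.8 to 57.6 CPM in KSL cells. Retnlg, a resistin-like peptide of neutrophils (NM_181596, chr16:48872721-48874611), was at 3366 and 3722 CPM in whole marrow and 0.0775 to 5.06 CPM (median 0.445) in KSL cells, 4453-fold lower (log2 -12.12 ± 1.29, adjusted p = 0.00019). Mmp8, the neutrophil collagenase (NM_008611, chr9:7558429-7568486), was at 1683 and 1881 CPM against 0.0578 to 3.85 CPM (3137-fold lower, log2 -11.62 ± 1.19). For both genes the highest KSL value was that of Fancd2-/- replicate 2, and the next highest KSL library was at 0.924 CPM for Retnlg and 0.693 CPM for Mmp8. Without that library the list's median was -11.2 and all 40 genes were still lower. Cd177, a neutrophil surface protein, Lcn2, the iron-siderophore binding protein lipocalin 2, and Lrg1 were 3142-fold, 2959-fold and 4117-fold lower.

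A cluster of stefin genes, which encode inhibitors of cathepsins, had almost no reads in KSL cells. BC100530 (chr16:36359468-36367656, mm9) had no read in any of the 6 KSL libraries and 30.7 and 43.4 CPM in whole marrow. Against a floor of 3 counts over the 6 libraries it was at least 3544-fold lower. Stfa2l1 (chr16:36156897-36162034) and Gm5483 (chr16:36184298-36188196) had 1 read each over all KSL libraries, against mean whole marrow levels of 37.6 and 43 CPM. Their close copies Gm5416, BC117090, Stfa2 and Stfa3 in the same stretch of chromosome 16 were also lower, with 0 to 4 reads over the KSL libraries. Ccdc58, just outside the cluster, was higher in KSL cells (log2 0.81 ± 0.16, adjusted p = 0.0012). The stefin genes are near-identical, so reads may be divided among them, and the values of single members are uncertain.

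Genes of early granules and of the neutrophil precursors that store them were mostly lower. Of 15 tested, 10 were lower and 2 higher (9 and 4 with library totals), with a median of -2.31. Elane, neutrophil elastase (chr10:79349057-79350961), was at 0.555 to 4.5 CPM (median 1.4) in KSL cells and at 2017 and 2060.0 CPM in whole marrow, 1104-fold lower (log2 -10.11 ± 0.60, adjusted p = 2.8e-06). Its neighbour Prtn3, proteinase 3 (chr10:79342412-79345917), was at 40 to 119.8 CPM against 1855 and 1657 CPM and 24.8-fold lower (log2 -4.63 ± 0.35). Mpo, myeloperoxidase, a gene looked up after its values were seen, was at 412 to 1030.0 CPM in KSL cells and averaged 5347 CPM in whole marrow (6.64-fold lower). Neither Elane nor Prtn3 nor Mpo overlapped between the populations. Ms4a3, a marker of granulocyte and monocyte progenitors, was at 0.77 to 12.5 CPM, with the highest value in Fancd2-/- replicate 3, against 206 and 239 CPM.

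Erythroid genes were lower throughout. All 41 tested were lower, 39 of them at least 4-fold, with a median of -7.13, and their share of reads was 6.70% and 6.42% in wild-type and Fancd2-/- whole marrow and 0.172% to 0.284% in KSL cells. Hba-a1, alpha globin (chr11:32183672-32184486), was at 21150.0 and 19890.0 CPM in whole marrow and at 1.58 to 98.4 CPM (median 2.2) in KSL cells, 1422-fold lower (log2 -10.47 ± 1.96, adjusted p = 0.0031). Its KSL values fell into 4 libraries between 1.58 and 2.33 CPM, wild-type replicate 3 at 21.3 CPM and Fancd2-/- replicate 2 at 98.4 CPM. Hba-a2 (chr11:32183675-32184493) lies over the same stretch and has the same values, so the copies cannot be told apart. In wild-type libraries alone the Hba-a1 call was lost (log2 -11.38, adjusted p = 0.051). Hbb-b1, beta globin, was at 0.747 to 34.1 CPM against 10390.0 and 10870.0 CPM, again with Fancd2-/- replicate 2 highest. Hbb-b2 (chr7:110961038-110962417) lies over Hbb-b1 (chr7:110961042-110962437) in the same way. The list's share of reads sums all of its genes, so reads on these overlapping copies enter it more than once. The share leaves out Beta-s, another beta globin entry (chr7:110975037-110976442), which was not on the list. Looked up for its level, Beta-s had a mean of 50190 CPM in whole marrow and 36 CPM in KSL cells. Without Fancd2-/- replicate 2 the erythroid median was -7.34. On a separate TMM scale over all 20 libraries, 40 of the 41 genes were above both whole marrow libraries in all 3 libraries of wild-type Ter119+ CD71high FSChigh erythroblasts of placebo mice, each of 1 mouse.

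**Figure D3:**
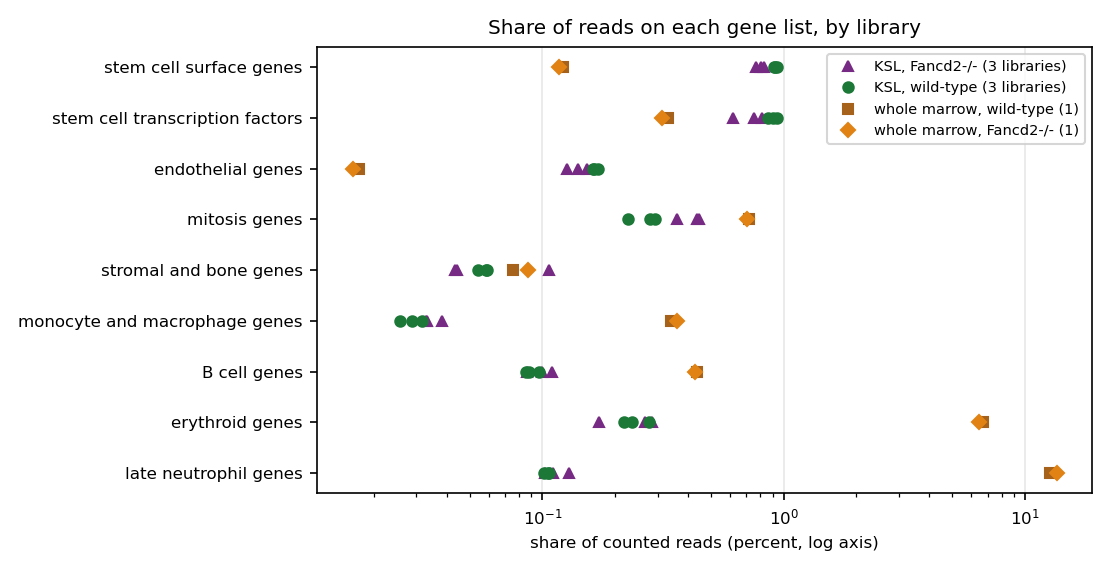
Share of counted reads (percent, log axis) that fell on the genes of 9 lists in each of the 8 libraries. Late neutrophil genes held 12.7% and 13.6% of whole marrow reads against 0.102% to 0.129% in KSL cells, while endothelial and stem cell lists lay to the right in KSL cells.

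Erythroblast libraries placed the genes at least 4-fold lower in KSL cells on both sides of whole marrow. On the 20-library scale, 533 of the 1830 (29.1%) had all 3 erythroblast libraries above both whole marrow libraries, and 1242 (67.9%) had all 3 below both, against 34.9% and 56% of all genes tested. All 40 late neutrophil genes and 26 of 28 B cell genes were below whole marrow in erythroblasts. Of the 1501 genes at least 4-fold higher in KSL cells, 75 (5%) were above whole marrow in erythroblasts. The 6 KSL libraries of mice fed oxymetholone, which the fit did not use, all lay below whole marrow for 1829 of the 1830 lower genes and all above it for 1444 of the 1501 higher ones, against 5480 and 5274 of all 13949 genes tested. These counts use the same whole marrow libraries and are a description.

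Promoter letters of the depleted lists are described here without a test. RefSeq (build GRCm38.p6) gave the 250 bases before the gene start for 11092 of the genes tested, 36 of 40 late neutrophil and 29 of 41 erythroid genes. Motifs were searched on both strands, and a promoter was counted for each motif it held. The letters of GATA factors were AGATAAG. For ETS factors such as PU.1 they were read as AGGAAGT. The C/EBP family was searched with TTGCNNAA, where N is any base. The C/EBP letters were in 25% of late neutrophil and 3.45% of erythroid promoters, against 7.66% of all. ETS letters were in 27.8% and 0%, against 7.45%, and GATA letters in 5.56% and 17.2%, against 1.79%. The median number of CG pairs was 2 in late neutrophil, 5 in erythroid, 19 in mitosis and 15 in all promoters. It was 11 in genes at least 4-fold higher in KSL cells and 7 in genes at least 4-fold lower. Stem cell transcription factors had a median of 14 and stem cell surface genes a median of 4. A match is a description of letters and not a bound site. The sequences of Mmp8, Retnlg and Epor are shown because they carry these letters, with the motifs in capitals. Hlf is shown as a gene higher in KSL cells whose promoter is rich in CG pairs, which are in capitals. It was picked and is not typical: 55.4% of genes at least 4-fold higher had 10 or more CG pairs, against 69.9% of all.
Mmp8 (chr9:7558179-7558428, plus strand): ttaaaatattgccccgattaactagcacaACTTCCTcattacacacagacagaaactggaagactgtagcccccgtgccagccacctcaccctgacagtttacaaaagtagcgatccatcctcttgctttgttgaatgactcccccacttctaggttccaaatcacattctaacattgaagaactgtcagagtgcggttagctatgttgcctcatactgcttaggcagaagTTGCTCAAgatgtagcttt
Retnlg (chr16:48872358-48872607, plus strand): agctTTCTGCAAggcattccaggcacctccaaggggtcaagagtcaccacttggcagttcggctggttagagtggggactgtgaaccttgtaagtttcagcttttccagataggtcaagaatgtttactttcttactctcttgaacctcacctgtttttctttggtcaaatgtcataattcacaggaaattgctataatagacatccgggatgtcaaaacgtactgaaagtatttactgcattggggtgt
Epor (chr9:21963577-21963826, minus strand): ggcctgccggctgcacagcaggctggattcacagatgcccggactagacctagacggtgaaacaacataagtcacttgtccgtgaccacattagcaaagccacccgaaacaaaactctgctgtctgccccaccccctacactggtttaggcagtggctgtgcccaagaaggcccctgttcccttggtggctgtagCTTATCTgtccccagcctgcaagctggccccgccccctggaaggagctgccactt
Hlf (chr11:90390918-90391167, minus strand): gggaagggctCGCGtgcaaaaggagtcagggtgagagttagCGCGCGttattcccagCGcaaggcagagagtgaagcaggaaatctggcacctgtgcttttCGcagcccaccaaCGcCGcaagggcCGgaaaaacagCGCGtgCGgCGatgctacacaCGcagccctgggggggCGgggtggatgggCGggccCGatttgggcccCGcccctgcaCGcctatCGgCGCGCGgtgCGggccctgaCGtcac

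Mmp8 holds ETS letters 221 bases and C/EBP letters 19 bases before the start, Retnlg C/EBP letters 246 bases before it, and Epor GATA letters 55 bases before it. Hlf holds none of the 3 motifs in this window and 26 CG pairs. In KSL cells the first 3 genes were at medians of 0.261, 0.445 and 5.68 CPM, and Hlf at 493 CPM.

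B cell genes were depleted with 1 exception. Of 28 tested, 27 were lower and 1 was higher, with a median of -5.14. Spib, an ETS factor of B cells and plasmacytoid dendritic cells, was at 0.144 to 1.79 CPM in KSL cells and at 289 and 269 CPM in whole marrow (614-fold lower, log2 -9.26 ± 0.64, adjusted p = 7.5e-06). Pax5, the factor that fixes B cell identity, had 0 to 0.11 CPM against 7.21 and 6.56 CPM. Ms4a1, the antigen CD20, was 413-fold lower. Dntt, the terminal transferase that adds nucleotides to antigen receptor joints, was the higher member, at 189 to 421 CPM against 71.8 and 60.7 CPM (4.45-fold, log2 2.15 ± 0.27, adjusted p = 5.1e-05). Every KSL library was above both whole marrow libraries for Dntt.

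Genes of lymphoid priming, a list of factors and receptors active when progenitors first turn to lymphocytes, were 6 higher and 18 lower of 26 (7 and 12 with library totals), with a median of -1.10. Cd27, a receptor of the TNF receptor family on multipotent progenitors, was at 333 to 397 CPM in KSL cells and at 22.2 and 22.4 CPM in whole marrow (16.1-fold higher). Mn1, a transcriptional coregulator, was 18.1-fold higher. Ikzf3, the lymphocyte factor Aiolos, was 171-fold lower at 0.077 to 0.578 CPM, and Blnk, an adaptor of B cell receptor signalling, 22.3-fold lower. Among plasma cell genes 11 of 14 were lower and none higher (8 and 3 with library totals). Igj, the joining chain of antibodies, was at 799.9 and 1187 CPM in whole marrow, and its KSL values were 232, 88.6 and 209 CPM in the Fancd2-/- libraries and 14.9, 18.4 and 47.5 CPM in the wild-type ones. The Fancd2-/- values were all higher than the wild-type ones, though all 6 were below whole marrow.

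T and NK cell genes were 25 lower and 3 higher of 31, with a median of -4.23. Cd3e, part of the T cell receptor complex, had reads in 1 of 6 KSL libraries, at 0.137 CPM in Fancd2-/- replicate 2, and was at 7.9 and 12.3 CPM in whole marrow. Lat, a signalling adaptor of T cells and platelets, was at 67.4 to 85.8 CPM in KSL cells against 15.1 and 20.1 CPM (4.36-fold higher, log2 2.12 ± 0.16, adjusted p = 1.4e-06). Klrb1c, the receptor NK1.1, was 2.28-fold higher. Its call was lost in Fancd2-/- libraries alone (adjusted p = 0.061).

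Monocyte and macrophage genes were 33 lower and none higher of 36, with a median of -3.91. F13a1, the coagulation factor XIII subunit of monocytes, was at 0.605 to 2.67 CPM in KSL cells and at 407 and 427 CPM in whole marrow (322-fold lower, log2 -8.33 ± 0.38, adjusted p = 1.1e-07). Msr1, a scavenger receptor, and Fcgr3, a receptor of antibodies, were 368-fold and 252-fold lower. In the dendritic cell and MHC class II list 19 of 27 were lower and 2 higher (16 and 6 with library totals). Siglech, a lectin of plasmacytoid dendritic cells, was 460.1-fold lower, while Irf8, the factor of monocyte and dendritic precursors, kept 32 to 67 CPM in KSL cells against 691 and 712 CPM (13.2-fold lower). The 2 higher ones, H2-Oa and H2-DMa, encode parts of proteins that regulate the loading of class II molecules (1.8-fold and 1.47-fold). Both calls were lost without the wild-type whole marrow library (log2 0.57 and 0.38).

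Basophil, mast cell and eosinophil genes were 16 lower and 2 higher of 23, with a median of -5.17. Prss34, a basophil protease, was at 0 to 0.522 CPM in KSL cells and at 339.7 and 340.5 CPM in whole marrow (3051-fold lower, log2 -11.58 ± 0.56, adjusted p = 4.2e-07). Hdc, which makes histamine, was 389.9-fold lower, and Epx, eosinophil peroxidase, 266-fold lower. Gata2, a factor of both mast cells and stem cells, was higher, at 155 to 277 CPM against 41.3 and 41.8 CPM (5.13-fold, adjusted p = 1.9e-06).

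Megakaryocyte and platelet genes divided into 7 higher and 23 lower of 33 (8 and 15 with library totals), with a median of -1.27. Angpt1, a ligand of Tek, was at 170.4 to 484 CPM (median 337) in KSL cells and at 10.3 and 9.3 CPM in whole marrow (35.4-fold higher, log2 5.15 ± 0.42, adjusted p = 2.7e-06). Mmrn1, a carrier of factor V, was at 28.7 to 105 CPM, 10.9-fold higher, and Gng11, a G protein subunit, 5.13-fold higher. The lower members named by the rule include proteins of the finished platelet. Tubb1, the tubulin of the platelet ring, was at 0.231 to 0.522 CPM against 58 and 43.1 CPM (151-fold lower, log2 -7.24 ± 0.22). Gp1bb, a subunit of the von Willebrand factor receptor, was 56.5-fold lower. Ligand and receptor of the angiopoietin pair, Angpt1 and Tek, were both above whole marrow in all 6 KSL libraries.

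Endothelial genes held more higher than lower members, unlike the stromal list: 13 higher and 9 lower of 26, with a median of 0.94. Several higher members are also known from stem cells. Emcn, endomucin, was at 33.6 to 66 CPM in KSL cells and at 0.965 and 0.838 CPM in whole marrow (52.9-fold). Robo4, a guidance receptor, was at 38.9 to 77.9 CPM (31-fold higher), Myct1 at 117 to 163 CPM (29-fold higher) and the junction protein Esam at 94.3 to 115 CPM (18-fold higher). Among the 9 lower members, Cdh5, the endothelial cadherin, was at 0 to 0.318 CPM against 6.12 and 5.81 CPM (46.3-fold lower, log2 -5.53 ± 0.51, adjusted p = 5.9e-06). Stab2, a marker of sinusoids, and Plvap, of fenestrated vessels, were 8.42-fold and 4.72-fold lower. Over the whole list the summed level was 1177 to 1471 CPM in KSL libraries and 247.4 and 262.1 CPM in whole marrow.

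Stromal and bone genes were 22 lower and 4 higher of 35, with a median of -3.30, and 9 were not called. Col5a1, a fibrillar collagen, was at 0.847 to 2.34 CPM in KSL cells and at 139 and 148 CPM in whole marrow (99.1-fold lower). Acp5, the acid phosphatase of osteoclasts, was 41.6-fold lower. Serpinf1, a secreted serpin, was higher, at 88.5 to 164 CPM against 18.9 and 14.4 CPM (7.18-fold), and so was Pdgfrb (4.32-fold). Fancd2-/- replicate 3 stood apart in this list: its summed level was 985.2 CPM against 380.7 to 501.2 CPM in the other 5 KSL libraries and 1136 to 1317 CPM in whole marrow. Spp1, osteopontin, the secreted protein in the title of the series, is a list member and made up 494 CPM of that library's sum. Its level was 11.9 and 12.1 CPM in the other Fancd2-/- KSL libraries. Spp1 was at 29.7, 5.01 and 5.7 CPM in the wild-type ones and at 21.4 and 28.8 CPM in whole marrow. Spp1 was not called (log2 0.55 ± 1.85, adjusted p = 0.81), and without that library its difference was -0.85. Whether cells of another type were in that library was not tested. Without it 26 of 34 stromal genes were lower and 6 higher.

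Mitosis genes were lower in KSL cells as a list without exception. All 30 tested were lower, with a median of -1.55, and 7 were at least 4-fold lower. With library totals 24 were lower and none higher, with a median of -0.75. Mki67, the proliferation antigen Ki-67 (chr7:142881471-142908062), was at 138 to 215 CPM (median 167) in KSL cells and at 2212 and 2098 CPM in whole marrow, 12.6-fold lower (log2 -3.65 ± 0.15, adjusted p = 2e-08). Ube2c, which marks cyclins for destruction at the end of mitosis, was at 88.1, 134 and 147 CPM in Fancd2-/- KSL libraries, at 42.3, 62.8 and 56.6 CPM in wild-type ones and at 607 and 601 CPM in whole marrow. The Fancd2-/- KSL values were above the wild-type ones, and all 6 were below whole marrow. Cenpf and Cenpe, of the kinetochore, were 6.4-fold and 6.38-fold lower. The list's median was -1.78 in wild-type libraries alone, where 30 were lower, and -1.16 in Fancd2-/- libraries alone, where 22 were. The difference between genotypes was not tested, as each has 1 whole marrow library.

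DNA replication genes were less depleted: 21 of 37 were lower and none higher, with a median of -0.46. With library totals the median turned to 0.34 with 19 higher and 3 lower. In wild-type libraries alone the list's median was -0.57, and in Fancd2-/- libraries alone it was -0.18. That difference between genotypes was not tested. Rrm2, the regulated subunit of ribonucleotide reductase, was at 47.8 to 96.7 CPM in KSL cells and at 649.7 and 671 CPM in whole marrow (9.28-fold lower, log2 -3.21 ± 0.15, adjusted p = 5.2e-08). Cdc6, a loader of the replicative helicase, was 3.4-fold lower. Mcm6, a subunit of that helicase, was at 747, 732 and 1005 CPM in Fancd2-/- KSL libraries against 637 CPM in Fancd2-/- whole marrow. In wild-type KSL libraries it was at 637, 552 and 587 CPM against 646 CPM. It lay above whole marrow in one genotype and below it in the other, and was not called (log2 0.12 ± 0.17, adjusted p = 0.56), but was called higher with library totals (log2 0.91).

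Cell cycle inhibitors and quiescence genes were 9 higher and 19 lower of 32 (12 and 16 with library totals), with a median of -1.49. Cdkn1c, the inhibitor p57 (chr7:150644244-150646955), was at 22.8 to 25.2 CPM in Fancd2-/- KSL libraries, at 38.3 to 41 CPM in wild-type ones and at 2.94 and 2.91 CPM in whole marrow (10.4-fold higher, log2 3.38 ± 0.21, adjusted p = 3.2e-07). Ccnd1, cyclin D1, was at 87.3 to 239 CPM against 20.1 and 29.2 CPM, 5.04-fold higher, with Fancd2-/- replicate 3 highest. Among the lower members, Klf2, a factor of resting lymphocytes, was at 1.33 to 4.16 CPM in KSL cells and at 220.1 and 243 CPM in whole marrow (99-fold lower), Klf4 was 45-fold lower, and Btg2, an antiproliferative gene, 20.8-fold lower. Immediate early genes, which respond within minutes to stress or growth factors, were 6 higher and 15 lower of 24. Myc was at 387 to 608 CPM against 152 and 156 CPM (3.11-fold higher), and Atf3, which cell stress induces, was 52.2-fold lower.

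Ribosome biogenesis genes were mostly higher, by small amounts on the TMM scale: 21 higher and 1 lower of 32, with a median of 0.56. With library totals all 32 were higher, with a median of 1.35. Wdr12, a factor of large subunit assembly, was at 80.5 to 138 CPM in KSL cells and at 38.2 and 39.7 CPM in whole marrow (2.6-fold higher, log2 1.38 ± 0.16, adjusted p = 2.9e-05). Npm1, nucleophosmin, was 2.31-fold higher and Tsr1 2.27-fold. Respiratory chain genes were 13 lower and 3 higher of 35, with a median of -0.27 that turned to 0.53 with library totals. Of all genes tested 36.5% were lower and 32.4% higher, so the lower count is near that share. Cox6a1, of complex IV, was at 188 to 483 CPM against 646 and 622 CPM (2.32-fold lower), with Fancd2-/- replicate 3 the highest KSL library, and the call was lost without the wild-type whole marrow library (adjusted p = 0.051). In Fancd2-/- libraries alone none of the 35 was called. In glycolysis and hypoxia genes 10 were higher and 10 lower of 28, both near the shares over all genes, with a median of 0.01. With library totals 17 were higher and 5 lower, with a median of 0.81. Gapdh, 1 of the 10 lower members on the TMM scale, had few reads. Its means were 0.412 CPM in KSL cells and 1.38 CPM in whole marrow, and why it was so low was not tested. Fancd2-/- replicate 3 stood apart in both lists. Its summed level was 12320 CPM in respiratory chain genes, against 6721 to 8374 CPM in the other KSL libraries and 10030 to 10480 CPM in whole marrow. In glycolysis and hypoxia genes it was 5459 CPM, against 3677 to 4219 CPM and 6083 to 6220 CPM. Without it 17 respiratory chain genes were lower and 4 higher, and 10 glycolysis and hypoxia genes were lower and 12 higher. Pdk1, which keeps pyruvate out of mitochondria, was at 158 to 211 CPM against 40.2 and 38.8 CPM (4.45-fold higher, adjusted p = 1e-06), and Ldhb was 3.78-fold higher. Hk3, the hexokinase of myeloid cells, was 6.98-fold lower and the glucose transporter Slc2a3 3.65-fold lower.

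**Figure D4:**
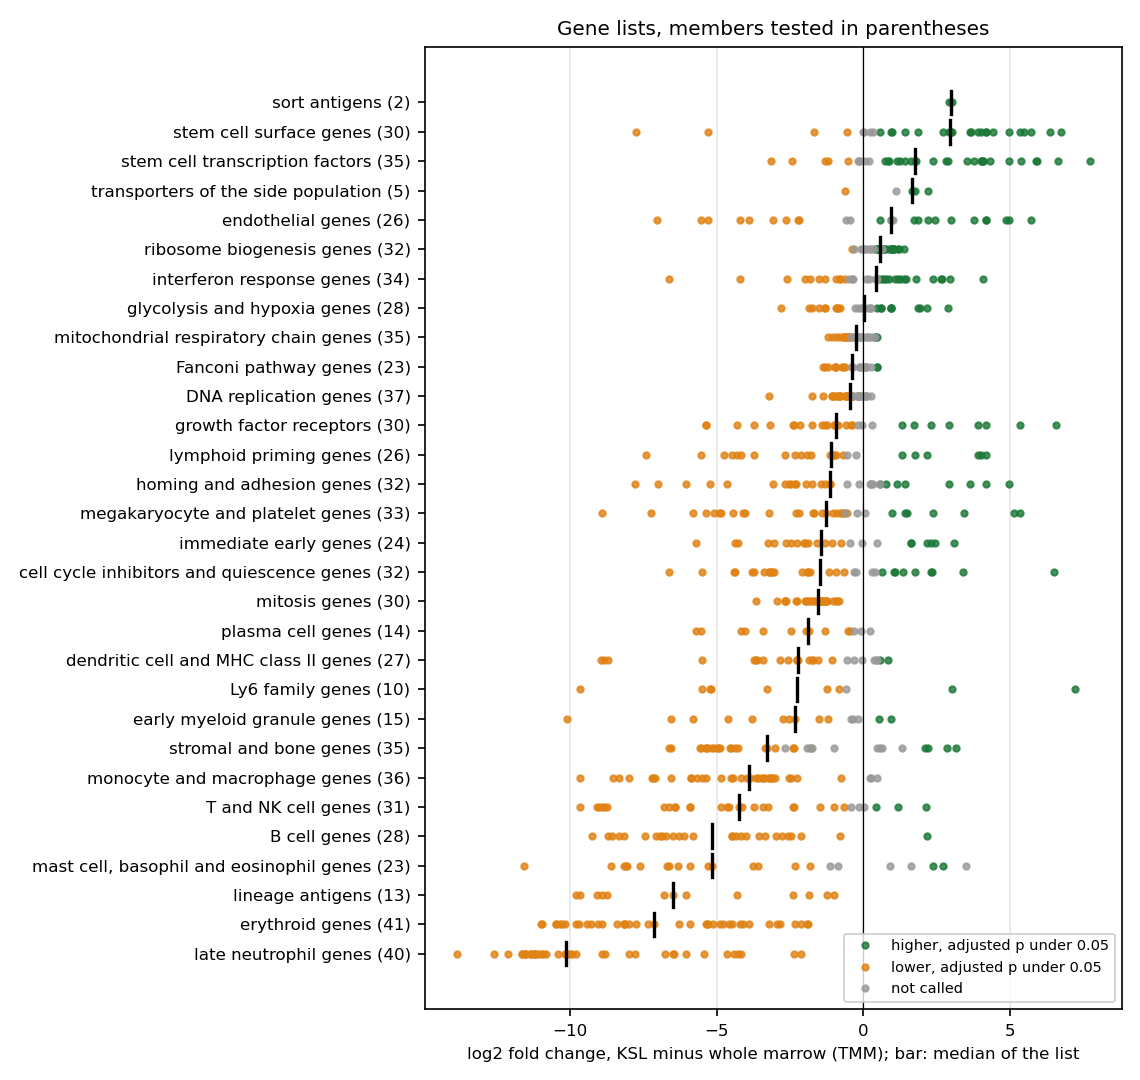
Each point is a tested member of a gene list, placed by its log2 fold change (KSL minus whole marrow, TMM scale) and coloured by the edgeR call at adjusted p under 0.05, with a bar at the list's median. The medians run from -10.1 for late neutrophil genes to 2.98 for the 2 sort antigens, and the members of the endothelial, megakaryocyte and receptor lists lie on both sides of 0.

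Interferon response genes were 16 higher and 11 lower of 34 (20 and 5 with library totals), with a median of 0.43. Oasl2 was at 29.9 to 51.2 CPM in KSL cells and at 6.3 and 3.59 CPM in whole marrow (7.78-fold higher, log2 2.96 ± 0.25, adjusted p = 3.3e-06). Gbp2, a guanylate-binding protein, was 6.21-fold higher. Rsad2, the antiviral protein viperin, was at 4.01 to 9.69 CPM against 800.1 and 703 CPM (99.3-fold lower), and Isg20, an exonuclease, was 18.3-fold lower. Homing and adhesion genes were 8 higher and 17 lower of 32 (12 and 15 with library totals), with a median of -1.14. Jam3, a junction protein of stem cells, and the integrin Itga6 were 12.3-fold and 2.69-fold higher. Cxcr2, the chemokine receptor that moves neutrophils, was at 1.26 to 2.45 CPM against 372 and 447 CPM (218-fold lower), and Itgam, the myeloid integrin CD11b, 66.3-fold lower.

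Fanconi pathway genes, which repair crosslinked DNA, were 10 lower and 2 higher of 23, with a median of -0.39 that turned to 0.41 with library totals. Over all genes tested the shares were 36.5% lower and 32.4% higher. Fancd2, the deleted gene (NM_001033244, chr6:113481676-113546279), checked the labels: it was at 14.6, 15.8 and 19.2 CPM in wild-type KSL libraries and at 7.32, 7.01 and 6.21 CPM in Fancd2-/- ones. In whole marrow it was at 39.5 CPM in the wild-type and 10.8 CPM in the Fancd2-/- library. Within each genotype KSL cells were below whole marrow, by 1.97-fold in the fit with genotype as a term (log2 -0.98 ± 0.17, adjusted p = 0.00056). The call was lost with library totals (log2 -0.18) and without the genotype term (adjusted p = 0.084). It was also lost in Fancd2-/- libraries alone (log2 -0.67). Reads remain in the Fancd2-/- libraries, and which part of the gene they cover was not analysed here. Fanca and Brca1 were 2.61-fold and 2.31-fold lower without overlap.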

How the data were processed

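Polyadenylated RNA of sorted KSL cells and of whole marrow was read as 51-base Illumina reads and aligned to mm9 with Bowtie, per the labels and the submitters' processing notes. Those notes also name edgeR. Versions, the counter, its strand setting and its handling of multi-mapped reads have no entry in the labels. The authors deposited raw counts per RefSeq transcript, the unit used for all main results. They also deposited a second matrix in which each library is scaled to one common total and rounded, a score used only as an alternative. The column headed HSC_101b was taken as the sample titled HSC_10b, since the series' design text gives that name to a Fancd2-/- placebo KSL library. For each of 20377 symbols the transcript row with the largest total was kept.

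Counts of the 8 libraries were filtered with filterByExpr, scaled by TMM and fitted with edgeR 4.0.16 (R 4.3.3, quasi-likelihood, robust) on population and genotype, with 5 residual degrees of freedom, and p-values were adjusted by Benjamini-Hochberg over 13949 genes. Called means adjusted p under 0.05. Depth was 10777293 to 121347117 counts, and intervals and floors (3 counts) cover counting error only. In simulated data for this comparison on 13650 genes, 77% of 100 genes changed 2-fold and 100% of 100 genes changed 4-fold were recovered. There were 9 false calls. Only these genes were changed, evenly up and down, with the same spread for every gene and otherwise the same makeup in both populations. The simulation therefore cannot test the choice of scaling or a comparison in which most genes differ. Named were the 12 genes per direction with the largest fold change, no overlap and at least 20 CPM in the higher population, both sort antigens, Fancd2, Spp1, the Ly6 family and, per list, up to 4 called members per direction at 5 CPM or more and 2 uncalled ones; the text describes part of these, and some items are not reported here. The comparison, its 30 gene lists and this rule were chosen with earlier results of these data known. DESeq2 1.42.0, limma 3.58.1, other scalings, filters and sets of libraries were alternatives. Coordinates are mm9, counted from 1, except promoters. Other libraries entered only the descriptions that name them.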

Additional observations from a re-analysis of the deposited data

Results flagged for a closer look

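Each of these values lay far from the other KSL libraries of 6, or went opposite ways in the genotypes. The gap rule used marks about 1 in 20 groups by chance if values are normally distributed, which CPM values near 0 are not. A gene with reads in only 1 KSL library always passes it, as did Stfa2, Gm5483 and Stfa2l1 with 1 read each. In all, 30 lists and 135 genes named in the text were examined. Many of the gene values rest on few reads, and no cause was tested.

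Fancd2-/- replicate 3 was high in 3 lists. Its summed level was 985.2 CPM in stromal and bone genes (380.7 to 501.2 CPM in the others), 12320 CPM in respiratory chain genes and 5459 CPM in glycolysis and hypoxia genes. Among genes it was high in Spp1 (494 CPM), Cox6a1 (482.6 CPM), Ccnd1 (239.3 CPM), Ms4a3 (12.5 CPM), Ly6c2 (5.78 CPM), Klf4 (3.46 CPM) and Ly6h (1.04 CPM), and low in Btg2 (18.0 CPM). The Spp1 value is part of the stromal and bone sum and makes up much of it.

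Fancd2-/- replicate 2 was high in 18 genes. The globin copies Hba-a1 and Hba-a2 were at 98.4 CPM and Hbb-b1 at 34.1 CPM. Among neutrophil genes, S100a9 was at 57.6 CPM, Lcn2 at 10.6 CPM, Retnlg at 5.06 CPM, Cd177 at 4.95 CPM, Mmp8 at 3.85 CPM, Lrg1 at 0.687 CPM, Stfa3 at 0.11 CPM, and Stfa2 and Gm5483 at 0.0275 CPM each. Genes of other lineages were Spib at 1.79 CPM, Prss34 and Tubb1 at 0.522 CPM each, Siglech at 0.412 CPM, Cd3e at 0.137 CPM and Pax5 at 0.11 CPM.

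Fancd2-/- replicate 1 was high in Cd3d (0.252 CPM) and Stfa2l1 (0.0505 CPM), and wild-type replicate 1 in Ldhb (129.9 CPM).

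Mcm6 was above whole marrow in every Fancd2-/- KSL library and below it in every wild-type one. The log2 ratio of mean KSL to whole marrow was 0.38 in Fancd2-/- and -0.13 in wild-type libraries. The difference was not tested.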

How the results depend on the processing

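Of the settings tried, 3 moved a count of genes past 1.5 times. Library totals gave 8159 higher and 2719 lower genes and 2542 at least 4-fold higher ones, limma on the scaled matrix 7798 higher and 2893 lower, and Fancd2-/- libraries alone 2485 higher and 3335 lower. Leaving out 1 library gave 3345 to 5352 higher genes, 4094 to 5219 lower ones, 1352 to 1604 at least 4-fold higher and 1763 to 1839 at least 4-fold lower. Directions turned, in log2, with library totals and the scaled matrix for Abcg2 (0.17 and 0.083), Itga2b (0.24 and 0.16) and Lyl1 (0.68 and 0.60). In wild-type libraries alone they turned for Lyl1 (0.013), Mcm6 (-0.024) and Spp1 (-0.55). With voom Spp1 was at -0.17. Without single libraries Spp1 ranged from -0.85 to 2.57 and was at -0.66 and -0.21 without Fancd2-/- whole marrow and wild-type KSL replicate 1. Mcm6 ranged from -0.14 (without Fancd2-/- whole marrow) to 0.36. Without both Fancd2-/- KSL libraries that stood apart, an alternative chosen after seeing the data, Spp1 was at -0.80. Of the 135 genes named, calls were lost for 9 in Fancd2-/- libraries alone, 6 with library totals, 5 on the scaled matrix, 4 without wild-type whole marrow and 1 or 2 in each of 4 other settings. Lyl1 and Mcm6 were called higher with library totals and on the scaled matrix. The cause was not tested. Each genotype has 1 whole marrow library, and a lone library is assumed to vary like the KSL ones. No paired analysis was possible because the labels give no replicate number that ties a KSL library to a whole marrow library.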
